A study of Homo sapiens with 4 samples.

Results

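The genes described here are 6 long non-coding RNA genes, RMST, MIAT, NEAT1, MALAT1, LINC02315 and LINC01876, among 77973 genes in the deposited gene table. They were picked by gene symbol, and RMST, LINC02315 and LINC01876 were picked because of their pattern over these same libraries. Values of those 3 genes are therefore given as a description, with counting intervals and no test. All 6 reached the minimum for testing, a mean of 20 reads over the libraries, which 8145 genes did. LINC02315 (mean 28 reads) and LINC01876 (mean 30.5 reads) reached it only through the libraries in which they are high.

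Transcripts were read end to end by PacBio sequencing of complementary DNA (Iso-Seq) from neurons made of KOLF2.1J cells, a widely used established line of human induced pluripotent cells. Every culture carried NGN2, a neurogenic transcription factor switched on with doxycycline at 2 µg/mL, a constitutive dCas9-BFP-KRAB fusion that silences guided promoters, and a lentiviral sgRNA in a puromycin-selected stable pool. There was 1 library in each of 4 groups, and all 4 are labelled replicate 1. The control had a non-targeting (NT) sgRNA and no azacytidine. The knockdown library had an sgRNA to TDP-43, a nuclear RNA-binding protein that prefers UG-rich RNA. The azacytidine library had the NT sgRNA and 5 µM 5-Azacytidine, a cytidine analogue that inhibits DNA methylation, for 72 h. The combined library had the TDP-43 sgRNA and the same azacytidine treatment. Spheroids were plated on day 8, and cultures were harvested on day 12 or day 15. The labels do not say which of these days applies to which library. With 1 pool and 1 library per group, every difference below is a difference between libraries and has no replicate check.

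Read numbers given without library names follow one order, control first, then knockdown, azacytidine and combined. The libraries held between 466337 and 767621 reads assigned to genes. TARDBP, the gene of TDP-43, had 104 reads in the control, 72 in the knockdown, 73 in the azacytidine and 43 in the combined library. Its log2 ratio was -0.87 for the knockdown without azacytidine and -0.79 with it (exact binomial adjusted p = 0.00134 and 0.0317). Summed neuron markers were 2761, 2692, 2967 and 2026 CPM, the usual unit of reads scaled to a common library size, here with TMM factors. All 10 of those markers reached the minimum for testing. Of 6 cortical markers only CUX1 did, and BCL11B, a marker of deep-layer cortical neurons, had 0 reads in 3 libraries and 2 in the knockdown library. TBR1, another cortical transcription factor, had 16, 18, 2 and 7 reads in the 4 libraries. The cultures are thus labelled cortical while the defining cortical markers were few.

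Long non-coding RNAs act without being translated, and those described here work mainly in the nucleus. NEAT1 is the scaffold of paraspeckles, nuclear bodies that hold RNA-binding proteins, and its long form is the one that builds them. MALAT1, its neighbour on chromosome 11, resides in nuclear speckles, where splicing factors gather. MIAT (also called Gomafu) is a neural nuclear RNA whose repeated UACUAAC motif binds the splicing factor SF1. RMST is a neural RNA that works with the transcription factor SOX2 during neurogenesis. LINC02315 and LINC01876 are intergenic RNA genes, and a LINC01876 transcript that starts in a LINE-1 transposable element has been described in developing human brain. TDP-43 binds NEAT1 and MALAT1 in brain.

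Sequences of MIAT and NEAT1 are shown because each holds, in a short stretch, copies of a run of letters related to known protein binding. For MIAT this is ACTAAC, the UACUAAC motif of SF1 without its first base. Not every ACTAAC marked in the MIAT window follows a T, so its copies are not all the full motif. For NEAT1 it is TGTGTG, a UG-rich run of the kind that TDP-43 prefers. They are written as DNA, 5′ to 3′, from the GENCODE 29 transcripts (hg38). The search was made on the transcript strand only and counted overlapping matches. Each 150-base window was the one with the most matches in its transcript. The MIAT window (chr22:26671400-26671549, plus strand) lies in exon 5 of 5 of ENST00000613780.4 and holds 5 copies of ACTAAC, in capitals. The NEAT1 window (chr11:65444172-65444321, plus strand) lies in the single exon of ENST00000501122.2 and holds 27 overlapping copies of TGTGTG, in capitals.
MIAT window: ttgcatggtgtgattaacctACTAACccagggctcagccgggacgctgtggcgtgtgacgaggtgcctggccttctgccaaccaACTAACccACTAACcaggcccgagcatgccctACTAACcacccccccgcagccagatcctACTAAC
NEAT1 window: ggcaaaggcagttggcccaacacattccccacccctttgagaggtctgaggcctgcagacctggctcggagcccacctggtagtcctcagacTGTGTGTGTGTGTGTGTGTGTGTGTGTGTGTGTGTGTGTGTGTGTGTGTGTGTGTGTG
The chosen windows were slid to their densest place, whereas the windows they are set beside are fixed tiles, so the comparison favours the chosen ones. Of 195932 consecutive windows of 150 bases over all long non-coding transcripts of that annotation, 1.77% held ACTAAC at all and none held 5 copies, the most being 4. TGTGTG occurred in 5.93% of those windows, and 2 windows held 27 copies or more. Along the whole transcript, MIAT had 14 copies of ACTAAC (1.38 per kb) and NEAT1 had 76 overlapping copies of TGTGTG (3.34 per kb). The MALAT1 transcript ENST00000534336.1 had 4 copies of TGTGTG (0.46 per kb) and the MIAT transcript 8 (0.79 per kb), and the searched transcripts of RMST, LINC02315 and LINC01876 had 0. A match is a run of letters and is not a measured binding site, and its absence from a transcript says nothing of the protein.

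Start regions of RMST and MALAT1 are shown because azacytidine acts at CpG cytosines. Without the knockdown, its library put these genes on opposite sides of the control, with log2 ratios of -2.15 and 0.94. In the knockdown background both were lower with azacytidine, with log2 ratios of -3.23 and -0.82. RMST was picked for its pattern, and a link of these ratios to CG pairs was not tested. The sequences are from RefSeq (GRCh38.p14), 250 bases before to 50 after a start on the plus strand, with CG in capitals. RMST has its window at chr12:97464441-97464740, within the span of the deposited gene model, and MALAT1 at chr11:65497488-65497787.
RMST start region: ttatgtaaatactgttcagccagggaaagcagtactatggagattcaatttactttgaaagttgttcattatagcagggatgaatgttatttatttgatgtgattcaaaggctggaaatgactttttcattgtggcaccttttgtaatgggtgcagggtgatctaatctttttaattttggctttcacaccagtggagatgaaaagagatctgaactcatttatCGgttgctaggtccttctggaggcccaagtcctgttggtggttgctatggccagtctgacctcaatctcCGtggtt
MALAT1 start region: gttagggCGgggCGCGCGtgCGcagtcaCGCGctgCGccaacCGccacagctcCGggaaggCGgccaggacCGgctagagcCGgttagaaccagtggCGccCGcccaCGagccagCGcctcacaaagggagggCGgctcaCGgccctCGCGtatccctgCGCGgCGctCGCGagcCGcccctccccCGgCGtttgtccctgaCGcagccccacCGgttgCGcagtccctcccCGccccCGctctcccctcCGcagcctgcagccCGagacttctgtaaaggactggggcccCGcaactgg
The RMST window shown holds 2 CG pairs and the MALAT1 window shown 37, against a median of 14 over 35116 such windows. Fewer CG pairs than in the RMST window were found in 11.0% of windows, and fewer than in the MALAT1 window in 88.7%. RefSeq gives RMST and MALAT1 a second start each. The window of the second RMST start (chr12:97464843-97465142) also holds 2. The RMST transcript ENST00000774549.1 begins in that window, at 97465078, and ENST00000640149.1 begins at 97430884, outside both. Neither begins in the RMST window shown, so it need not be the start of the RNA that was counted. The window of the second MALAT1 start (chr11:65498795-65499094) holds 14, the median. The MALAT1 transcripts ENST00000508832.3 and ENST00000710875.1 begin within that second window, at 65499042 and 65499045. The MIAT window (chr22:26646179-26646478) holds 3, and the leading MIAT transcript, ENST00000620145.6, begins outside it, at 26657588. The files hold no methylation values, so whether these cytosines were methylated was not measured.

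RMST (ENSG00000255794.12, chromosome 12, 97386565 to 97598415, plus strand) was high in the knockdown library and lowest in the azacytidine library. It had 40 reads in the control, 714 in the knockdown, 7 in the azacytidine and 50 in the combined library. These are 68.4 CPM (exact Poisson 95% interval 48.9 to 93.2), 966 (896 to 1040), 14.6 (5.86 to 30.0) and 102 (75.7 to 134). The knockdown library stands far above the others, the intervals of control and combined library overlap, and the azacytidine interval lies below all others. These intervals hold counting error alone, because molecules copied by amplification are not independent.

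Without azacytidine the knockdown library had 14.0 times the RMST level of the control, a log2 ratio of 3.80 (exact 95% interval 3.36 to 4.32). With azacytidine the knockdown ratio was 6.60-fold, a log2 ratio of 2.72 (1.66 to 4.19). Azacytidine went with a lower level in both backgrounds, with log2 ratios of -2.15 (-3.63 to -1.06) without the knockdown and -3.23 (-3.69 to -2.83) with it. A gene was called when its adjusted exact binomial p was under 0.05 and its log2 ratio was at least 1 in size. By that rule 3.43% of tested genes were called higher with the knockdown without azacytidine, 3.72% higher with the knockdown under azacytidine, and 0.344% higher in both. For azacytidine, 10.5% of genes were called lower without the knockdown, 15% with it and 6.72% in both. RMST was picked for these ratios, so nothing is read from its place among those shares.

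**Figure D1:**
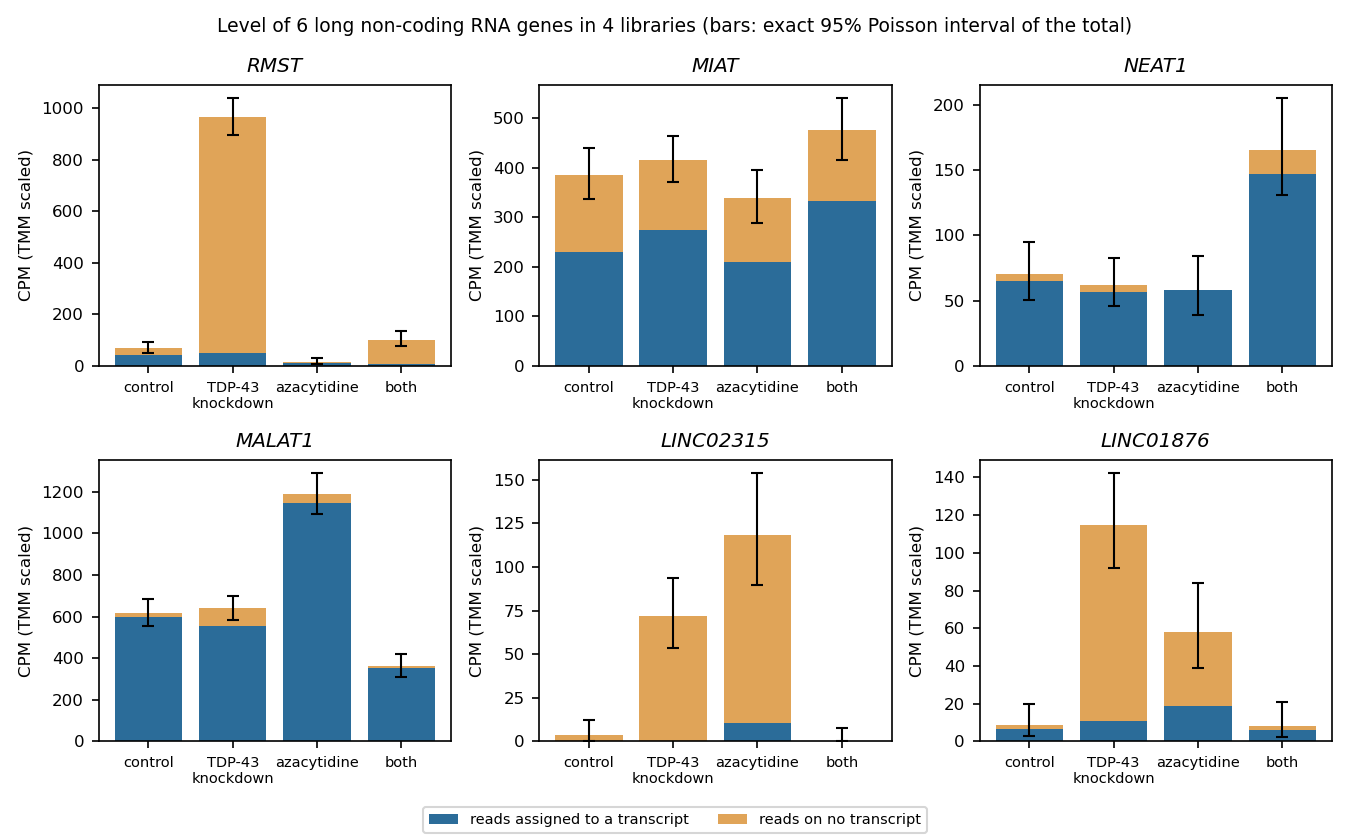
Level of the 6 genes in each of 4 libraries, in CPM with TMM scaling on linear axes from 0, each panel with its own range; blue is reads assigned to an annotated transcript, orange is reads on no transcript, and bars are exact 95% Poisson intervals of the total. RMST reaches 966 CPM in the knockdown library, almost all of it on no transcript, while NEAT1 and MALAT1 are mostly blue.

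The extra RMST reads of the knockdown library were not assigned to any RMST transcript. The gene table counts reads for a gene that the transcript table need not assign to any of its transcripts. Of the 40 control reads, 24 were assigned to a transcript (60%, Wilson 95% interval 44.6 to 73.7%), and of the 714 knockdown reads 38 were (5.32%, 3.90 to 7.22%). In the azacytidine library 5 of 7 reads were assigned (71.4%, 35.9 to 91.8%), and in the combined library 4 of 50 (8%, 3.15 to 18.8%). Both libraries with the TDP-43 sgRNA thus had a low share of assigned reads, and both without it a high one. This measure was chosen after its values were seen.

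Counted on annotated transcripts alone, RMST gave knockdown ratios whose intervals span 0. The transcript reads gave a log2 ratio of 0.31 (-0.45 to 1.13) without azacytidine and -0.32 (-2.68 to 1.86) with it. Reads on no transcript gave 5.02 (4.35 to 5.88) and 4.19 (2.56 to 7.58). The azacytidine ratios were low by either count, -1.87 (-3.73 to -0.56) without the knockdown and -2.50 (-4.60 to -1.18) with it on transcript reads, and -2.44 and -3.27 on reads on no transcript. Annotated exons cover 14089 of the 211851 bases of the RMST span (6.65%). The deposited files hold no read positions, so where in the span the other reads lie was not measured. No unannotated transcript was added to any of the 6 genes. Over the whole libraries, transcript reads made up 63.9% of gene reads in the control, 58.5% in the knockdown, 68.1% in the azacytidine and 60.4% in the combined library.

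RMST reads that were assigned spread over 24 of its 67 annotated transcripts and lay on different ones in different libraries. ENST00000774549.1, with 5 exons, held 11 of 24 transcript reads in the control and 0 of 38 in the knockdown library. ENST00000640149.1, with 14 exons, held 0 of 24 in the control and 9 of 38 in the knockdown library. These are estimates in which reads that fit several transcripts are divided, and only 1 and 9 reads in those libraries belonged to 1 RMST transcript alone. A mean of 17.8 transcript reads left RMST under the minimum of 20 for a test of transcript shares.

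The gene nearest in pattern to RMST was DLG1, a synaptic scaffold gene, with 19, 180, 3 and 14 reads in the 4 libraries. Likeness is the Euclidean distance between log2(CPM + 1) profiles centred over the 4 libraries, and DLG1 lay at 0.83. LRRC4C (1.83) and the long non-coding RNA gene CASC15 (1.90) came next, and CASC15 had 50, 155, 6 and 24 reads. Assigned reads made up 19.9% of DLG1 reads, 47.1% of LRRC4C reads and 15.7% of CASC15 reads over the 4 libraries, against a median of 67.9% over tested genes (quartiles 52.6% and 80.3%). On 4 libraries such a likeness is a description only. An unnamed gene on the minus strand, ENSG00000300902.1, overlaps RMST and had 95, 66, 85 and 26 reads, in another order than RMST. Whether counting used strand is not given in the sources used here, so reads of overlapping genes may not be told apart.

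The gene beside RMST was low with azacytidine too, but not high with the knockdown. NEDD1, a centrosomal spindle gene 432785 bases away, had 111, 138, 29 and 17 reads in the 4 libraries. Its log2 ratio was -0.03 for the knockdown without azacytidine, and -1.63 and -2.39 for azacytidine without and with the knockdown (exact binomial adjusted p = 6.85e-08 and 8.2e-14). TMPO, on the other side, had 172, 224, 75 and 69 reads. NEDD1 is also counted in the list of RMST partner, target and flanking genes. Of its 8 genes, 4 reached the minimum, and 0 of those were called with the knockdown in either background. Of all tested genes 7.16% and 8.47% were called there, so 0 of 4 is not read as a result about the list. SP8, a forebrain transcription factor gene, had 67, 63, 2 and 2 reads and fell with azacytidine, with log2 ratios of -4.47 and -4.07 (exact binomial adjusted p = 2e-13 and 1.07e-10). SOX2, the protein partner of RMST, had 30, 35, 18 and 8 reads. It fell with azacytidine in the knockdown background (log2 ratio -1.47, exact binomial adjusted p = 0.0135). Without the knockdown the log2 ratio was -0.44, and the difference of those ratios was not tested. The medians of the 4 tested genes, NEDD1 included, were -0.27 and -0.54 for the knockdown and -1.05 and -1.93 for azacytidine, against all-gene medians between -0.01 and 0.00.

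Summed markers of progenitors and dividing cells were low in both azacytidine libraries. RMST was below the control in the azacytidine library alone. In the combined library it stood at 102 CPM against 68.4 in the control, with overlapping intervals, and was low only beside the knockdown library. Summed over 8 neural progenitor markers the level was 859 CPM in the control, 676 in the knockdown, 173 in the azacytidine and 129 in the combined library. Of the 4 that reached the minimum, 2 fell under azacytidine in the NT background and 3 did so in the knockdown background, where 10.5% and 15% of all tested genes were called lower. PAX6 had 290, 313, 3 and 4 reads, while SOX1 was at 0 in both azacytidine libraries. In the control and knockdown libraries PAX6 made up most of the progenitor sum (496 and 423 CPM). NES, another of the tested progenitor markers, had 64, 53, 36 and 42 reads and was not called in any pair. All 6 proliferation markers fell with azacytidine in both backgrounds, from a sum of 812 CPM in the control to 64.5, and from 653 CPM in the knockdown library to 67.3. Markers of the ventral midbrain and floor plate, a region where RMST is known to be expressed, summed to 214, 134, 24.98 and 32.6 CPM. OTX2 (100, 72, 10 and 7 reads) made up most of that sum in each library except the combined one, and the defining SHH and FOXA2 had at most 1 read in any library. The part of these cells in the RMST values was not tested, and in bulk RNA fewer cells of a type and less RNA per cell cannot be told apart. Between control and knockdown, the summed level of none of these 3 marker groups was higher in the knockdown library. What this means for RMST in that pair was not tested.

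LINC02315 (ENSG00000251363.4, chromosome 14, 40954415 to 41149579, plus strand) was present with either treatment alone and nearly absent with neither or both. It had 2 reads in the control, 53 in the knockdown, 57 in the azacytidine and 0 in the combined library. Scaled, these are 3.42 CPM (0.41 to 12.4), 71.7 (53.7 to 93.8), 119 (89.9 to 154) and 0, where a count of 0 allows up to 6.12 CPM (3 reads). Control and combined library lay at or under that floor of 3 reads, and the intervals of the knockdown and azacytidine libraries overlap. The knockdown ratio without azacytidine was 16.9-fold, with a log2 ratio of 4.08 and an interval of 2.47 to 7.47. The azacytidine log2 ratio without the knockdown was 4.81 (3.20 to 8.20). With azacytidine the level was at least 19.4-fold lower with the knockdown added, taking 3 reads as the floor of the combined library, and the exact 95% interval of the log2 ratio ends at -3.93. In the knockdown background azacytidine went with a level at least 11.7-fold lower on the same floor, and the interval of the log2 ratio ends at -3.20.

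LINC01876 (ENSG00000226383.8, chromosome 2, 156010644 to 156320306, minus strand) had the same order of libraries except at the top. It had 5 reads in the control, 85 in the knockdown, 28 in the azacytidine and 4 in the combined library. These are 8.55 CPM (2.78 to 19.96), 115 (91.9 to 142), 58.3 (38.7 to 84.2) and 8.16 (2.22 to 20.9). Control and combined library did not differ beyond their intervals, and the knockdown interval lies above that of azacytidine. The knockdown log2 ratio was 3.62 (2.47 to 5.41) without azacytidine and -2.69 (-4.81 to -1.32) with it. The azacytidine log2 ratio was 2.66 (1.38 to 4.50) without the knockdown and -3.66 (-5.73 to -2.41) with it. Among all tested genes, 0.258% were called higher with the knockdown without azacytidine and lower with it, and 0.417% were called in opposite directions either way. Both genes were picked for this pattern.

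For both genes the reads lay mostly on no annotated transcript. All 53 knockdown reads of LINC02315 did, as did 52 of 57 in the azacytidine library. For LINC01876 the reads on no transcript were 1, 77, 19 and 1 in the 4 libraries, and the transcript reads were 4, 8, 9 and 3. The transcript reads of LINC01876 gave knockdown log2 ratios of 0.58 (-1.24 to 2.84) and -1.47 (-4.14 to 0.39), with both intervals spanning 0. Annotated exons cover 2.46% of the LINC02315 span and 3.26% of the LINC01876 span.

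Over the 4 libraries together, 4.46% of LINC02315 reads, 8.75% of RMST reads and 19.7% of LINC01876 reads were assigned to a transcript. These pooled shares are carried by the libraries in which the genes are high, since RMST stood at 60% and 71.4% in the control and azacytidine libraries, and LINC01876 had 4 of 5 and 3 of 4 reads assigned in the control and combined ones. Of the 8145 tested genes, 0.307%, 0.614% and 1.92% had a lower share than these. MIAT stood at 64.8%, close to the median, and NEAT1 (91.8%) and MALAT1 (93.8%) stood above most genes, with 94.0% and 96.3% of genes lower. NEAT1 and MALAT1 have annotated exons over their whole span, and MIAT over 53.7% of its span.

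**Figure D2:**
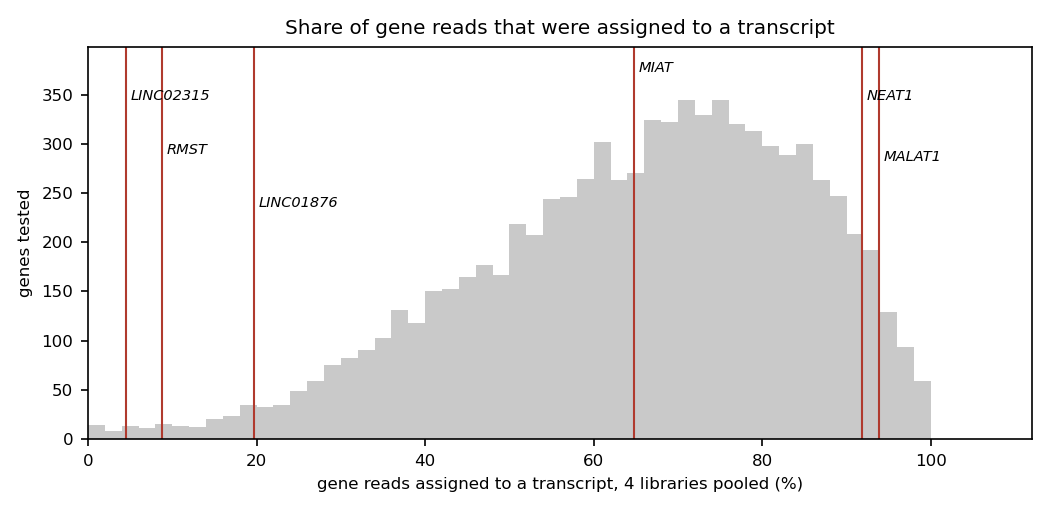
Histogram over 8145 tested genes of the percent of gene reads assigned to a transcript, the 4 libraries pooled, with red lines at the 6 genes. LINC02315, RMST and LINC01876 lie in the low tail at 4.46%, 8.75% and 19.7%, shares carried by the libraries in which they are high, and NEAT1 and MALAT1 lie above 90%.

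The genes nearest in pattern to these also had few assigned reads. ZNF460 lay nearest to LINC02315, at a distance of 1.65, with 6, 54, 29 and 0 reads and 22.5% of them assigned. MYO5B, a motor protein gene, was among the 3 nearest of both, with 9, 103, 33 and 3 reads and 9.46% assigned. Its distance was 2.67 to LINC02315 and 0.81 to LINC01876. The unnamed gene ENSG00000282936 (0.81) and TBC1D19 (1.17) were the others near LINC01876, and LINC01876 itself was the third nearest to LINC02315. MIA2, the nearest tested gene to LINC02315, lies 1565902 bases away and had 38, 34, 25 and 46 reads. GPD2, 114984 bases from LINC01876, had 58, 56, 31 and 55 reads. GALNT13, the nearest tested gene on the other side at 1556463 bases, had 42, 128, 20 and 25 reads and was highest in the knockdown library, as LINC01876 was. Its log2 ratios were 1.26 and 0.29 for the knockdown without and with azacytidine, and -0.77 and -1.74 for azacytidine.

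NEAT1 (ENSG00000245532.12, chromosome 11, 65422278 to 65445540, plus strand) was highest in the combined library and within overlapping intervals elsewhere. It had 41 reads in the control, 46 in the knockdown, 28 in the azacytidine and 81 in the combined library. These are 70.1 CPM (50.3 to 95.1), 62.2 (45.6 to 83.0), 58.3 (38.7 to 84.2) and 165 (131 to 205). The intervals of control, knockdown and azacytidine overlap one another and all lie below that of the combined library. NEAT1 was 2.80-fold higher with the knockdown under azacytidine, a log2 ratio of 1.49 (0.87 to 2.18, exact binomial adjusted p = 2.56e-05). Without azacytidine, where 7.16% of tested genes were called, the knockdown log2 ratio was -0.17 (-0.81 to 0.47, exact binomial adjusted p = 0.803). With azacytidine in the knockdown background NEAT1 was 2.64-fold higher, a log2 ratio of 1.40 (0.87 to 1.96, exact binomial adjusted p = 8.03e-07). Without the knockdown the azacytidine log2 ratio was -0.26 (-1.01 to 0.46, exact binomial adjusted p = 0.664). Both calls rest on the combined library. The sum of the 10 neuron markers was lowest in that library. With the knockdown under azacytidine 3 of them fell, MAP2, STMN2 (log2 ratio -1.15) and NEFL (-1.16). Of all tested genes, 4.75% were called lower in that pair. RBFOX3 (log2 ratio 0.51) and SLC17A7 (0.32) went the other way, were not called there and were highest in the combined library. The part of these marker differences in the NEAT1 and MALAT1 values was not tested. Of all tested genes, 11.6% were called higher with azacytidine in the knockdown background. Whether the knockdown ratios differ between the backgrounds was not tested.

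Nearly every NEAT1 transcript read was assigned to the long form. Transcript reads numbered 38, 42, 28 and 72 in the 4 libraries. All but 1 were on ENST00000501122.3, an exon of 23263 bases that spans the gene and holds the TGTGTG run shown above. Only 2 of 16 annotated NEAT1 transcripts had any reads, so transcript shares could not be compared. Full-length counts were 27, 20, 12 and 43, again highest in the combined library. The deposited files give no read lengths, so assignment to this transcript does not show that a read spans it. The long NEAT1 form and mature MALAT1 end in a triple helix in place of a poly(A) tail, and the labels name polyadenylated RNA as the molecule; the part of this in the levels was not tested.

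At most 2 of the listed genes of paraspeckle and speckle proteins were called in any pair. With 19 genes tested, such counts are not read as a result about the list. It includes TARDBP, the knockdown target, whose knockdown log2 ratios of -0.87 and -0.79 did not reach the fold of the rule. Of 20 listed genes, 19 were found by symbol and tested, and 0 were called with the knockdown under azacytidine in either direction, against 8.47% of all genes. Their median log2 ratio there was 0.05. With azacytidine in the knockdown background, where 26.6% of all genes were called, DAZAP1 rose (75, 67, 53 and 104 reads in the 4 libraries; log2 ratio 1.22, exact binomial adjusted p = 4.6e-07). The splicing factor gene SRSF1 fell there (135, 136, 70 and 38 reads; log2 ratio -1.23, exact binomial adjusted p = 4.49e-06), and the list's median was 0.01. With the knockdown without azacytidine, 2 of 19 fell, against 3.73% of all genes called lower. These were HNRNPM (133 to 81 reads, log2 ratio -1.05) and TAF15 (35 to 19 reads, log2 ratio -1.20), with a list median of -0.28. With azacytidine without the knockdown TAF15 fell (35 to 11 reads, log2 ratio -1.34), with a median of -0.22. The core paraspeckle proteins SFPQ (218, 277, 139 and 160 reads) and NONO (116, 121, 90 and 68 reads) were not called in any pair.

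MALAT1 (ENSG00000251562.12, chromosome 11, 65497606 to 65508073, plus strand) begins 52066 bases beyond NEAT1 and was lowest where NEAT1 was highest. It had 361 reads in the control, 473 in the knockdown, 570 in the azacytidine and 177 in the combined library. These are 617 CPM (555 to 685), 640 (584 to 700), 1187 (1091 to 1288) and 361 (310 to 418). The control and knockdown intervals overlap, the azacytidine interval lies above both and the combined interval below both. The knockdown log2 ratio was 0.05 (-0.15 to 0.25, exact binomial adjusted p = 0.825) without azacytidine. With azacytidine MALAT1 fell by 1.71 on the log2 scale (interval -1.97 to -1.47, exact binomial adjusted p = 1.47e-47), to 0.30 of the azacytidine level, where 4.75% of tested genes were called lower.

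Azacytidine itself went with opposite MALAT1 differences in the 2 backgrounds. Without the knockdown MALAT1 was 1.92-fold higher, a log2 ratio of 0.94 (0.75 to 1.14, exact binomial adjusted p = 2.24e-20), and with it the log2 ratio was -0.82 (-1.08 to -0.57, exact binomial adjusted p = 3.35e-10). Neither reached the fold of the call rule, although scaling by total reads gave 1.01 for the first. Counting only reads that belong to 1 MALAT1 transcript alone (44, 66, 47 and 31 reads), the fall with the knockdown under azacytidine was no longer called, with a log2 ratio of -0.48 (exact binomial adjusted p = 0.534). MALAT1 reads on no transcript numbered 11, 62, 20 and 5. Assigned reads were 86.9% of MALAT1 reads in the knockdown library, below the 96.5% to 97.2% of the other libraries.

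**Figure D3:**
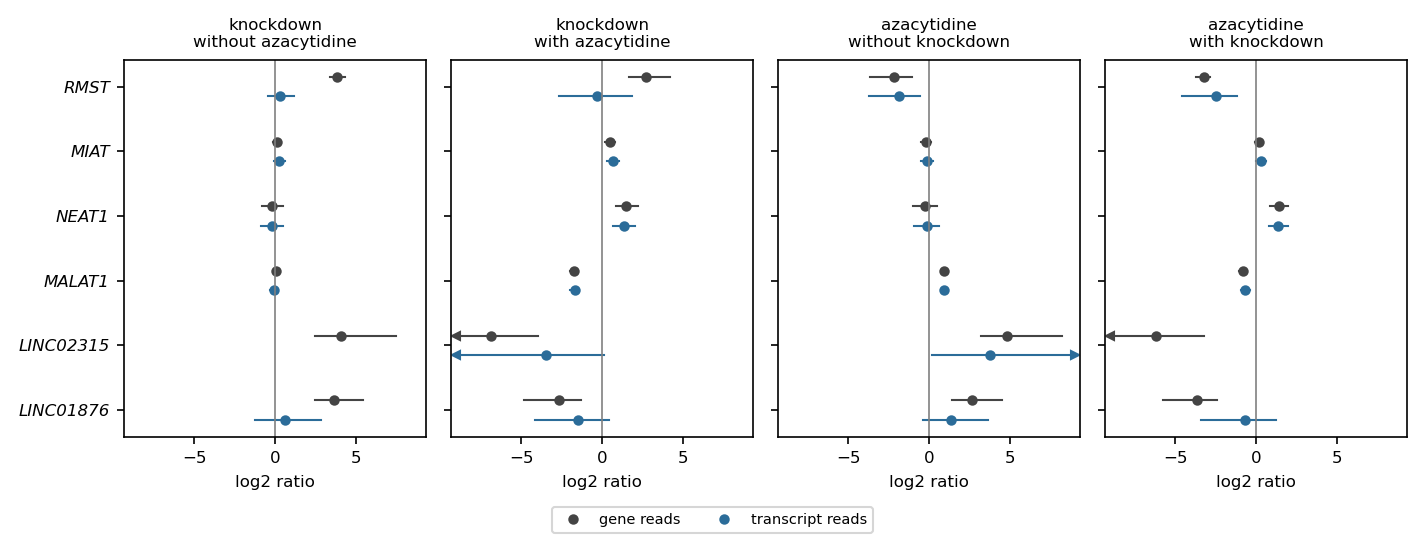
Log2 ratios of the 6 genes in the 4 pairs of libraries, from all gene reads (dark) and from reads assigned to a transcript (blue), with exact 95% intervals from the 2 read counts; arrows mark intervals without an end, where a library had 0 reads, and the point there depends on the pseudocount of 0.5. Knockdown ratios of RMST leave 0 on gene reads and not on transcript reads, and NEAT1 and MALAT1 move apart in the second panel.

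In an additive model over the 4 libraries, which takes the interaction of the treatments as error and has 1 residual degree of freedom, edgeR's quasi-likelihood test called neither treatment for any of the tested members. Adjusted p-values for the knockdown were 0.793 for MIAT, 0.730 for NEAT1 and 0.680 for MALAT1, and for azacytidine 0.988, 0.363 and 0.932. That model called 0 genes for the knockdown (644 at an unadjusted p under 0.05) and 688 for azacytidine. An exact binomial call in both pairs of a treatment was made for 81 genes with the knockdown and 809 with azacytidine. As shares of tested genes, 0.344% were higher and 0.651% lower with the knockdown in both pairs, and 3.22% higher and 6.72% lower with azacytidine. NEAT1, MALAT1 and MIAT were not among them.

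Genes of several kinds came nearest in pattern to NEAT1 and MALAT1. ZNF512B, at a distance of 0.12 from NEAT1, had 23, 26, 16 and 42 reads in the 4 libraries. TYK2 and GLYR1 followed at 0.15 each, with 37, 43, 28 and 70 reads and 144, 153, 89 and 245 reads. FZD1, a Wnt receptor gene, lay at 0.16 from MALAT1 with 20, 26, 32 and 11 reads, followed by EYA2 (0.17) and SCAND3 (0.19). DPF2, the tested gene before NEAT1, had 39, 74, 51 and 80 reads and, like NEAT1, was highest in the combined library once scaled.

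The transcripts to which MALAT1 reads were assigned differed with the knockdown in both backgrounds. The unspliced transcript ENST00000534336.4, a single exon of 10468 bases, held 58.0% of the transcript reads in the control (Wilson interval 52.8 to 63.1%) and 74.9% in the knockdown library (70.5 to 78.9%). It held 57.8% in the azacytidine library (53.7 to 61.9%) and 76.1% in the combined library (69.3 to 81.9%). Libraries with the TDP-43 sgRNA were the higher ones in both backgrounds, by 16.9 and 18.3 percentage points (Fisher's exact test, adjusted p = 5.36e-05 and 0.000763). The spliced ENST00000619449.4, with 3 exons, held 17.0%, 4.24%, 20.3% and 0% in the 4 libraries. Its share fell by 12.7 and 20.4 points with the knockdown (Fisher's exact test, adjusted p = 5.27e-07 and 2.23e-12). Shares of 1 gene sum to 100%, so these changes are not independent of each other.

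Of 7 MALAT1 transcripts tested, 2 passed the usage rule (adjusted p under 0.05 and a change of 10 points) with the knockdown without azacytidine and 4 with it, where 7.45% and 4.86% of all 14161 tested transcripts did. With azacytidine 2 of 7 passed without the knockdown and 0 of 7 with it, against 6.34% and 7.9%. ENST00000508832.3 held 13.1%, 7.70%, 2.42% and 2.79% and fell by 10.8 points with azacytidine (Fisher's exact test, adjusted p = 8.67e-08). ENST00000710875.1 held 1.58%, 4.82%, 14.3% and 3.26%, and was thus high in the azacytidine library alone. ENST00000610851.2 held 1.68%, 6.81%, 1.31% and 12.1%, and rose by 10.9 points with the knockdown under azacytidine (Fisher's exact test, adjusted p = 1.15e-06). Most of these reads fit several transcripts and were divided by estimate, and ENST00000619449.4 had 0 reads of its own in any library. On reads that belong to 1 transcript alone, the share of ENST00000534336.4 was 21.97 points higher with the knockdown without azacytidine and changed by -2.33 points with it, and neither passed (Fisher's exact test, adjusted p = 0.563 and 1.00).

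**Figure D4:**
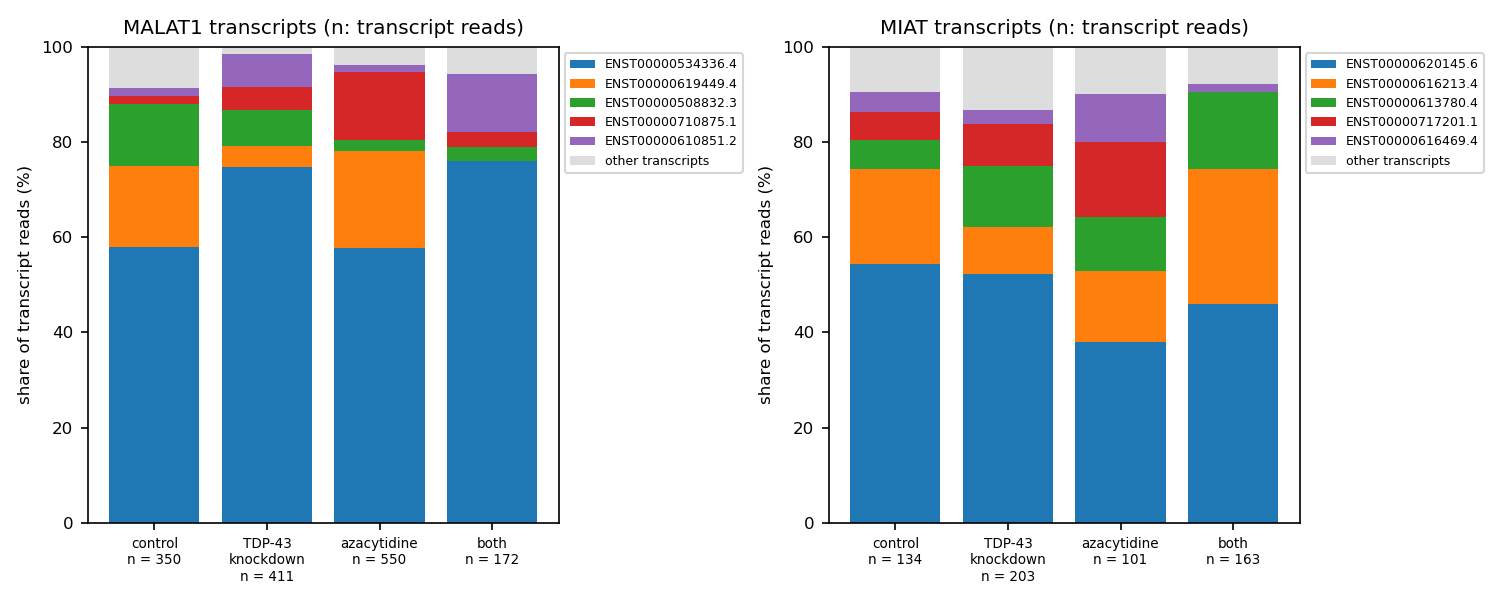
Share of transcript reads of MALAT1 and MIAT held by each transcript that reached 10% in any library, in percent, by library, with the number of transcript reads under each bar. The bottom MALAT1 segment is 58.0% and 57.8% in the libraries with the NT sgRNA and 74.9% and 76.1% in those with the TDP-43 sgRNA.

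MIAT (ENSG00000225783.10, chromosome 22, 26646411 to 26676478, plus strand) differed least between libraries. It had 225 reads in the control, 307 in the knockdown, 163 in the azacytidine and 233 in the combined library. These are 385 CPM (336 to 439), 415 (370 to 464), 339 (289 to 396) and 475 (416 to 540). Ranked by level the libraries run from azacytidine through control and knockdown to combined. Neighbours in that ranking overlap in their intervals, and the lowest and the highest do not. The knockdown log2 ratio was 0.11 (-0.14 to 0.36, exact binomial adjusted p = 0.664) without azacytidine and 0.48 (0.19 to 0.78, exact binomial adjusted p = 0.0102) with it. The azacytidine log2 ratio was -0.18 (-0.48 to 0.12, exact binomial adjusted p = 0.426) without the knockdown and 0.20 (-0.06 to 0.44, exact binomial adjusted p = 0.214) with it. None reached the fold of the call rule, and every interval lies within 1 of 0 on the log2 scale. Assigned reads made up 59.6%, 66.1%, 62.0% and 69.96% of MIAT reads.

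The leading MIAT transcript, ENST00000620145.6 with 5 exons, held 54.4%, 52.2%, 37.9% and 46.0% of transcript reads in the 4 libraries, and did not pass in any pair. ENST00000613780.4, whose last exon holds the ACTAAC repeats shown above, held 6.05%, 12.9%, 11.4% and 16.2% and did not pass either. It was the only MIAT transcript searched, and others, ENST00000620145.6 among them, also span the position of the window. Its share is therefore not the share of all MIAT RNA that holds the repeats. ENST00000717201.1, with 4 exons, held 5.99%, 8.74%, 15.7% and 0%, and fell by 15.8 points with the knockdown under azacytidine (Fisher's exact test, adjusted p = 1.1e-05). It had 0 full-length reads and 0 reads of its own in any library, so this call rests on divided estimates. ENST00000616213.4 held 19.9%, 9.87%, 15.1% and 28.4% and rose by 18.4 points with azacytidine in the knockdown background (Fisher's exact test, adjusted p = 0.000335). On reads that belong to it alone the change of ENST00000616213.4 was -6.90 points. Of 7 MIAT transcripts tested, these were the only calls, 1 in each of those pairs. Of all 14161 tested transcripts, 4.86% passed with the knockdown under azacytidine and 7.9% with azacytidine in the knockdown background. With so few tested, 1 of 7 is not read as a result about MIAT.

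Of the 4 listed MIAT partner genes, 0 were called with the knockdown in either background, with medians of -0.02 and -0.29. Of all tested genes 7.16% and 8.47% were called there, so 0 of 4 is not read as a result about the list. QKI, an RNA-binding protein gene of progenitors and glia, had 100, 178, 15 and 15 reads and fell with azacytidine, with log2 ratios of -2.41 and -2.93 (exact binomial adjusted p = 1.54e-11 and 5.46e-22). CELF3, a neuronal splicing regulator gene, had 88, 114, 133 and 167 reads and rose with azacytidine in the knockdown background (log2 ratio 1.14, exact binomial adjusted p = 7.67e-10). SF1, which binds the UACUAAC motif, had 132, 158, 125 and 87 reads and was not called. The list's azacytidine medians were 0.12 and -0.16. With azacytidine 16.6% of all tested genes were called without the knockdown and 26.6% with it. Genes nearest in pattern to MIAT were EXTL3, TMEM131 and ADIPOR2, all at distances of 0.03 to 0.04, and their reads vary as little as those of MIAT.

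Beside the 6 genes, 46 of 50 other listed neural long non-coding RNA genes were found by symbol, and 20 reached the minimum for testing. With the knockdown without azacytidine 0 were called higher and 2 lower, against 3.43% and 3.73% of all tested genes. With the knockdown under azacytidine 2 were called higher and 0 lower, against 3.72% and 4.75%. MIR99AHG, host gene of a microRNA cluster, had 346 reads in the control and 62, 6 and 4 in the knockdown, azacytidine and combined libraries. Its log2 ratio was -2.81 with the knockdown without azacytidine (exact binomial adjusted p = 2.05e-61), and 10.3% of its reads were assigned to a transcript. MIR124-2HG, a host gene of the neuronal microRNA miR-124, had 104, 24, 121 and 94 reads and a log2 ratio of -2.43 in that pair (exact binomial adjusted p = 2.95e-15). SOX2-OT (56, 62, 15 and 52 reads) and PANTR1 (27, 46, 5 and 21 reads) rose with the knockdown under azacytidine by log2 ratios of 1.73 and 1.94 (exact binomial adjusted p = 0.000194 and 0.0228). In both genes the azacytidine library was the lowest of the 4.

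With azacytidine without the knockdown 0 of the 20 were called higher and 5 lower, namely MIR99AHG, PANTR1, SOX2-OT, JPX and MIR100HG, against 6.02% of all genes higher and 10.5% lower. In the knockdown background 3 rose and 5 fell with azacytidine, against 11.6% and 15% of all tested genes. MIR124-2HG (log2 ratio 2.54), LINC01122 (2.07) and MIR124-1HG (1.02) rose, and MIR99AHG (-3.20), KCNQ1OT1 (-1.53), JPX (-1.48), SNHG14 (-1.31) and MIR137HG (-1.24) fell. KCNQ1OT1 (64, 154, 37 and 35 reads), SNHG14 (494, 844, 332 and 226 reads) and MIR137HG (61, 147, 44 and 41 reads) were highest in the knockdown library, as RMST was, with knockdown log2 ratios of 0.92, 0.43 and 0.92 that did not reach the fold of the rule. The list's medians were -0.18 and -0.12 for the knockdown without and with azacytidine, and -0.19 and -0.35 for azacytidine without and with the knockdown. Pairs with a library in common share its counting error, so their ratios are not independent.

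**Figure D5:**
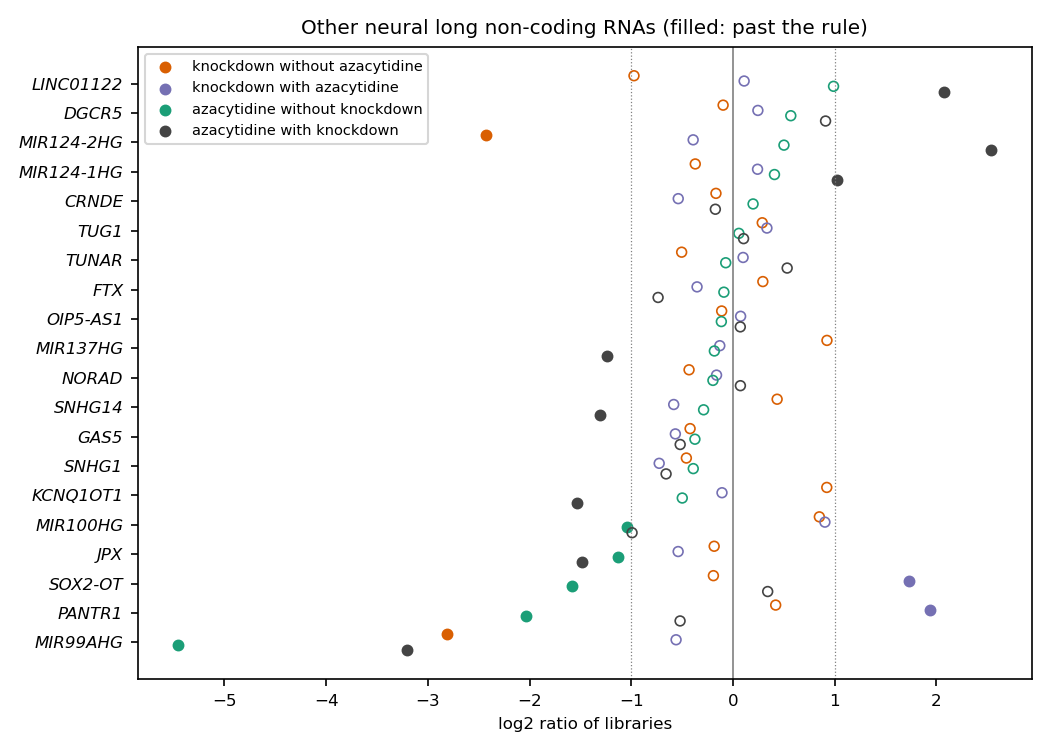
Log2 ratios of the 20 tested genes of the list of other neural long non-coding RNAs in the 4 pairs of libraries, sorted by the azacytidine ratio without the knockdown; filled points pass the call rule and dotted lines mark a log2 ratio of 1 in size. MIR99AHG lies at -5.45 with azacytidine without the knockdown, and no gene is filled on the right for the knockdown without azacytidine.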

How the data were processed

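Iso-Seq libraries of 4 groups, 1 each, were analysed. Per the file headers the authors aligned reads with minimap2 to hg38 and quantified them with Bambu, and versions are not given in the sources used here. The authors made and deposited estimated counts, or expected counts, for each gene and transcript and for full-length reads. They also deposited counts of whole reads assigned to 1 transcript alone. All gene counts were even to within 0.00031, and 0 unique counts were odd, so every count was divided by 2 and rounded for the tests (58.7% to 59.1% were odd afterwards). Designed tests had assumed 1 count per read. The reason for even values is not stated.

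Groups came from the treatment labels. The main test was an exact binomial one, two-sided, on the gene reads of a pair of libraries and their effective sizes (TMM, edgeR 4.0.16, R 4.3.3). Its p-values were adjusted by Benjamini-Hochberg over the 8145 genes whose mean reached 20 reads. Log2 ratios use a pseudocount of 0.5 reads, and a call needs an adjusted p under 0.05 and an absolute log2 ratio of at least 1. For transcript shares, Fisher's exact test (two-sided, same adjustment) was run over 14161 transcripts with at least 10 reads in genes with a mean of 20 transcript reads and another such transcript. Such tests compare the reads of libraries, not conditions. Libraries held 466337 to 767621 gene reads. Intervals are exact Clopper-Pearson, exact Poisson or Wilson at 95%, cover counting error only, and the floor for a count of 0 is 3 reads.

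The members and gene lists were chosen with earlier results of these data known, so no list is independent evidence. Named were the 6 genes, TARDBP, genes of the lists, the nearest tested gene on each side, the 3 genes nearest in profile, and transcripts with at least 10% of their gene's transcript reads. MATR3 matched 2 identifiers and was left out. Summed marker levels not given in the report were 291, 260, 112 and 129 CPM for cortical, 380, 388, 287 and 239 for peripheral and hindbrain, 318, 326, 239 and 267 for pluripotency, and 154, 115, 22.9 and 8.16 for glia and mesenchyme markers, in the library order of the report. Symbols matched 41670 of 77186 annotated gene identifiers (54.0%). Alternatives were DESeq2 1.42.0 size factors, total reads, other minimums and pseudocounts, unhalved counts, other deposited counts and an additive edgeR model. Scripts were tested on simulated data.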

Additional observations from a re-analysis of the deposited data

Results flagged for a closer look

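LINC02315 and LINC01876 had knockdown ratios of opposite direction in the 2 backgrounds. For LINC02315 the log2 ratio was 4.08 without azacytidine and -6.87 with it, the second resting on a library with 0 reads and so on the pseudocount. For LINC01876 the log2 ratios were 3.62 and -2.69. With 1 library in each group the difference between backgrounds was not tested, and both genes were picked for this pattern.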

How the results depend on the processing

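No paired analysis was possible because each group has 1 library and all carry replicate number 1, so the groups share fewer than 2 numbers; no library could be left out either. Numbers of called genes, by the exact binomial rule, were 583 and 690 for the knockdown without and with azacytidine and 1348 and 2166 for azacytidine without and with the knockdown, with 81 and 809 in both pairs. Sums of transcript counts gave 68, 153, 498 and 1022, with 11 and 321 in both pairs, over fewer genes tested. Sums of full-length counts gave 16, 64, 42 and 71 (7 and 19), and sums of uniquely assigned counts 63, 120, 212 and 441 (10 and 117). A mean of at least 5 reads gave 1079 for the knockdown without azacytidine and 2270 and 3496 for azacytidine, and no minimum gave 1187 for the former and 3302 for azacytidine with the knockdown. The additive edgeR model called 0 genes for the knockdown. Transcripts past the usage rule numbered 1055, 688, 898 and 1119. Full-length counts gave 4, 19, 17 and 18, uniquely assigned counts 49, 40, 43 and 104, and unhalved counts, which double the apparent evidence, 2516, 2106, 2599 and 2829. Among called shares, under uniquely assigned counts that of ENST00000534336.4 (MALAT1) with the knockdown under azacytidine turned to -2.33 points, and that of ENST00000616213.4 (MIAT) with azacytidine in the knockdown background to -6.90 points; the cause was not tested. Values that were not called turned more often. Log2 ratios turned for NEAT1 (knockdown without azacytidine, 0.019 with no minimum) and MALAT1 (same pair, -0.025 on transcript sums). MIAT turned on full-length sums to -0.11 (knockdown with azacytidine) and 0.31 (azacytidine without the knockdown), and on unique sums to -0.40, 0.79 and -0.14 (azacytidine with the knockdown). The share of ENST00000620145.6 (MIAT) turned on full-length counts to 14.8 points (knockdown without azacytidine), 8.31 and 3.41 (azacytidine without and with the knockdown). On unique counts shares turned to -0.41 (ENST00000613780.4, knockdown without azacytidine), -19.2 (ENST00000616213.4) and 5.13 (ENST00000717188.1, both knockdown with azacytidine), and 30.7 (ENST00000534336.4) and 1.98 (ENST00000610851.2, both azacytidine without the knockdown). Of the log2 ratios of the 6 genes under alternatives, 173 were kept, 1 passed the rule, 1 was lost and 7 turned. For MIAT, NEAT1 and MALAT1, kept means the same direction and side of the rule. For RMST, LINC02315 and LINC01876 it means a value inside the main interval. On transcript, full-length and unique sums those last genes fell under the minimum and are not in the tally. The RMST knockdown log2 ratio without azacytidine was 3.80 on gene reads and 0.31 on transcript reads. Of changes in transcript share, 140 kept direction and side of the rule, 2 passed, 4 were lost and 10 turned. Depth limits LINC02315 and LINC01876 most, and an estimate divided among overlapping transcripts limits MALAT1 and MIAT shares.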
